A study of Homo sapiens with 6 samples.

Results

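HSP70 chaperones were followed across a small transfection experiment with constructs of IMP1, the RNA-binding protein encoded by IGF2BP1. The family was taken as 10 genes, namely HSPA6, HSPA1A, HSPA1B, HSPA1L, HSPA2, HSPA8, HSPA9, HSPA4, HSPA4L and HSPH1. Every probe set whose platform symbol includes one of these genes was used, also where it carries several symbols, which gave 25 of the 54613 probe sets left without array controls. A probe set is a group of short probes on the array that together report 1 transcript signal. Cells of a human kidney line, whose name the labels do not give, had been transfected with a construct labelled hIMP1 Dmut, with hIMP1 wt, or with an empty vector (mock). Each group had 2 arrays, 6 in all, and each array held total RNA of 1 sample. No label explains Dmut, the time between transfection and RNA, the promoter of the constructs, the share of cells that took them up, or whether the 2 samples of a group were separate cultures. The p-values therefore measure only the spread between these samples, which may be technical.

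HSP70 proteins bind exposed hydrophobic stretches of other proteins and release them in cycles of ATP hydrolysis. J-domain proteins start the hydrolysis, and nucleotide exchange factors, among them the larger relatives HSPA4, HSPA4L and HSPH1, reset the chaperone for the next round. HSPA8 is made constantly in nearly all cells and HSPA9 works in mitochondria, while HSPA1A, HSPA1B and HSPA6 are made under heat and other protein-damaging stress. HSPA6 is nearly silent in unstressed human cells, and its induction follows binding of heat shock factors to repeats of the unit GAA and its complement TTC.

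Promoter windows of 4 cytosolic members that carry such repeats are shown first, with HSPA6, the gene that the results turn on, at the top. Each window holds the 250 bases before the start that RefSeq gives on GRCh38.p14, and capitals mark matches to GAANNTTC or TTCNNGAA (2 units), overlapping matches included.
HSPA6, chr1:161524290-161524539, plus strand: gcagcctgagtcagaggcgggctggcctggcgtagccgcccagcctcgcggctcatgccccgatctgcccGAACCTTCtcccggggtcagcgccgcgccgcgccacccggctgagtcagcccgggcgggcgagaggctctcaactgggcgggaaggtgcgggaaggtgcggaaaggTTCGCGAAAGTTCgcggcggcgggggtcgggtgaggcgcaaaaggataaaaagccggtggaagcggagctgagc
HSPA1A, chr6:31815293-31815542, plus strand: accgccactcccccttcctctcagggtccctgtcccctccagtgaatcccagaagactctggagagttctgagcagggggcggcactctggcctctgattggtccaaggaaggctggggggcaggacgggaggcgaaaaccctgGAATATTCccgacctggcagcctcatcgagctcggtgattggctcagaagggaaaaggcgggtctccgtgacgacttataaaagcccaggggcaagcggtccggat
HSPA1B, chr6:31827488-31827737, plus strand: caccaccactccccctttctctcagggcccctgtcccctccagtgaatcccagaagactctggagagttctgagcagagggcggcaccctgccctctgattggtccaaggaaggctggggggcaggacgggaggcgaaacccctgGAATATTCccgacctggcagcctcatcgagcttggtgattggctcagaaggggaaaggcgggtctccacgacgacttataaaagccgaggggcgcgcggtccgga
HSPA8, chr11:123062137-123062386, minus strand: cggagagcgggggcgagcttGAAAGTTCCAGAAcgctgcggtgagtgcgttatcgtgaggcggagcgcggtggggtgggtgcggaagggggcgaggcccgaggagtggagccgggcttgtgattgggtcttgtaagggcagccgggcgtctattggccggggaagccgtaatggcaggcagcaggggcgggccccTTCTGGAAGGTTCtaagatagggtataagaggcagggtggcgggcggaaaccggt

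All 10 genes had a window in the RefSeq table, 12 windows in all because HSPA4L has 3 starts. The 2-unit letters occurred in 6 of these windows and in 11.6% of 35116 human windows of the same length, searched on both strands. The longer forms with 3 units, GAANNTTCNNGAA or TTCNNGAANNTTC, occurred in 2 of the 12 windows and in 0.441% of all windows. HSPA6 held 1 such run, between 74 and 62 bases before its start, and HSPA8 held 2, between 230 and 218 and between 55 and 43 bases before its start. The HSPA1A and HSPA1B windows, shifted by 1 base, differed at 14 of 249 positions and shared a 2-unit match. The HSPA1L window overlapped that of HSPA1A by 241 bases on the other strand and therefore contained the same match. A match is a stretch of letters and not a measured binding site.

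**Figure D1:**
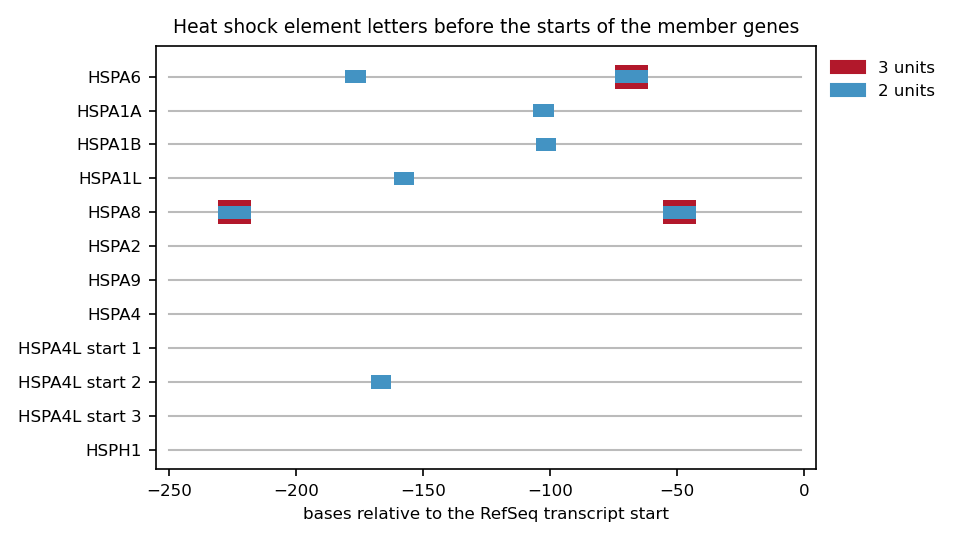
Positions of the 2-unit (blue) and 3-unit (red) letters in the 12 promoter windows of the 10 genes, as bases before the RefSeq start (x axis), 1 window per line. HSPA6 has a 3-unit run between 74 and 62 bases before its start, and HSPA8 has 2 such runs.

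Signals are the deposited linear intensities. Changes are differences of log2(intensity + 9.04), which makes changes of dim probe sets smaller, and each is given with its standard error. Of the 25 probe sets, 22 passed a filter that kept the brighter part of the table, 27307 probe sets in all. The array medians lay between 26.7 and 33.7. Arrays that share a replicate number in their titles were more alike over the table (r between 0.97 and 0.98) than the 2 arrays of 1 group (0.963 or 0.964). The 2 IGF2BP1 probe sets that passed the filter differed from mock by 0.51 ± 0.39 and 0.05 ± 0.25 with hIMP1 Dmut, and by 0.46 ± 0.39 and 0.03 ± 0.25 with hIMP1 wt, none past the test. Whether these probe sets lie within the transfected sequence is not given in the sources used here. Kidney lineage genes PAX8, WT1 and SALL1, 3 of 7 measured, were over 4 array medians on every array, while CDH16, a kidney cadherin, lay under the median everywhere. SALL1 passed narrowly, at 4.02 on its lowest array. PAX2 ran from 0.466 to 1.22 array medians, LHX1 from 0.525 to 1.15 and EYA1 from 1.32 to 3.39. Epithelial KRT8, KRT18 and EPCAM, 3 of 5, were also over 4 medians on every array. The other epithelial genes were not: KRT19 lay under the median everywhere, and CDH1 ran from 0.182 to 1.89 array medians. Of the fibroblast, blood or endothelial markers, 0 were over 4 medians on every array. Fibroblast COL1A1 came near, from 3.05 to 5.14 array medians, and HBB of the blood list ran from 1.22 to 2.58.

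HSPA6, the strictly inducible member, was the gene of the family that rose, and it rose with both constructs. Its probe set 213418_at read 1033 and 824 on the hIMP1 Dmut arrays, 646 and 454 on the hIMP1 wt arrays, and 28.6 and 3.02 on the mock arrays. The second probe set, 117_at, read 582 and 535 with hIMP1 Dmut, 355 and 229 with hIMP1 wt, and 13.6 and 2.57 with mock. Both probe sets thus gave the same order of groups, hIMP1 Dmut above hIMP1 wt above mock, with no overlap between any 2 groups. Among all probe sets tested, 12.6% had both hIMP1 Dmut arrays above both mock arrays. For hIMP1 wt above mock the share was 9.72%, and for hIMP1 Dmut above hIMP1 wt it was 13.1%. The 2 probe sets report the same gene and are not separate evidence for the order. The arrays measure RNA of all cells together, so fewer cells with the transcript and less transcript per cell cannot be told apart.

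With hIMP1 Dmut, 213418_at averaged 929 ± 148 against 15.8 ± 18.1 with mock (SD, n = 2 each), a log2 change of 5.45 ± 0.44 (43.7-fold on this scale, adjusted p = 0.00292 by limma). For 117_at the hIMP1 Dmut mean was 558 ± 33.3 against 8.07 ± 7.78 with mock, a log2 change of 5.13 ± 0.35 (35-fold, limma adjusted p = 0.00102). These 2 probe sets were the 2 called in the whole table, or 0.00732% of it. With hIMP1 wt, 213418_at averaged 550 ± 136 against the same mock values, a log2 change of 4.69 ± 0.44 (25.8-fold, limma adjusted p = 0.0119). The hIMP1 wt mean of 117_at was 292 ± 89.4, a log2 change of 4.18 ± 0.35 (18.2-fold, limma adjusted p = 0.0071). Here too the 2 HSPA6 probe sets were the 2 called of 27307, again 0.00732%. Both comparisons use the same mock arrays.

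The size of the fold rests on very dim mock values. Mock replicate 2 lay below the lower quartile of its array, 8.26, at both probe sets, and no detection calls were used here. HSPA6 passed the filter because of the construct arrays, since at both probe sets the mean log2 value of the mock arrays alone lies below the limit. Over the 16 alternative settings the log2 change of 213418_at ran from 4.41 to 6.27 with hIMP1 Dmut and from 3.68 to 5.51 with hIMP1 wt, and that of 117_at from 3.94 to 5.95 and from 3.04 to 4.99, over the 15 settings that keep it. Without mock replicate 2 the changes of 213418_at were 4.63 with hIMP1 Dmut and 3.87 with hIMP1 wt. That fit leaves 1 mock array, so the spread between the mock arrays no longer enters it, and its test cannot show whether the calls depend on that array. The calls were lost without hIMP1 Dmut replicate 1 (limma adjusted p of 0.377 and 0.185 for hIMP1 Dmut at 213418_at and 117_at, 0.209 and 0.171 for hIMP1 wt). They were also lost without hIMP1 Dmut replicate 2 (0.251 and 0.159 for hIMP1 Dmut, 0.213 and 0.174 for hIMP1 wt), and without an intensity trend in the prior (0.153 and 0.0502 for hIMP1 Dmut, 0.419 and 0.202 for hIMP1 wt). The hIMP1 wt calls were lost as well when only the 4 arrays compared were fitted (0.234 at each probe set), and at 213418_at with the offset at the 10th percentile (0.0829).

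Between the constructs, HSPA6 was higher with hIMP1 Dmut at both probe sets, but the difference did not pass the test. The change hIMP1 Dmut minus hIMP1 wt was 0.76 ± 0.44 at 213418_at (95% interval -0.22 to 1.74, unadjusted p = 0.116 by limma). At 117_at it was 0.94 ± 0.35 (95% interval 0.18 to 1.71, unadjusted p = 0.021 by limma, adjusted p = 1). No probe set of the table was called in this comparison (0%), and 337 probe sets, 1.23%, had an unadjusted limma p under 0.05. The excess over hIMP1 wt was seen within both replicate numbers, at 0.67 and 0.85 for 213418_at and at 0.70 and 1.19 for 117_at. HSPA7, a pseudogene and close copy of HSPA6 at chr1:161606172-161608550, has no probe set of its own in the annotation. Whether its RNA binds to the HSPA6 probes was not tested.

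**Figure D2:**
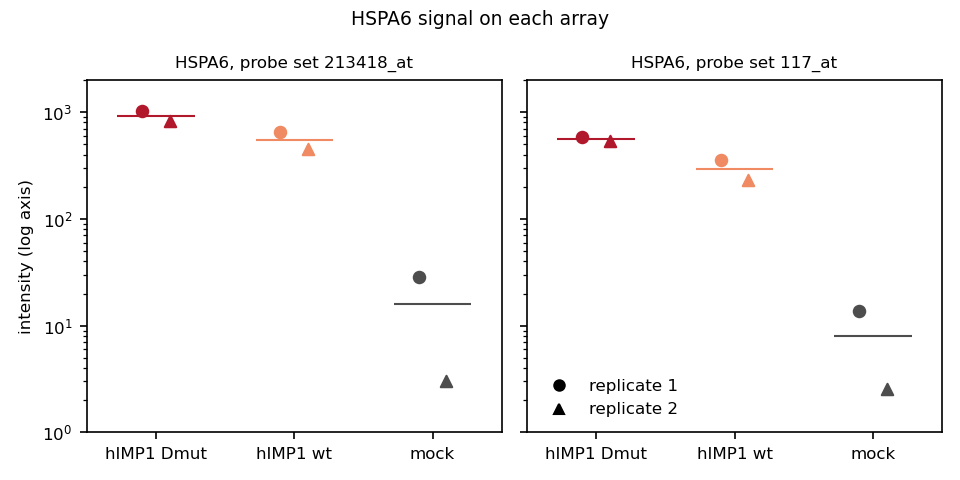
Intensity (log axis) of the HSPA6 probe sets 213418_at (left) and 117_at (right) on each array, by group; circles are replicate 1, triangles replicate 2, and lines the group means. The 4 construct arrays lie between 229 and 1033 over both panels, and the 2 mock arrays between 2.57 and 28.6.

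HSPA1A and HSPA1B, the main stress-inducible pair, encode nearly identical proteins and share all of their probe sets, so their signals cannot be separated. Their 3 probe sets were bright on every array, and their means were higher with both constructs than with mock, but none passed the test. Probe set 202581_at read 3349 and 2971 with hIMP1 Dmut, 3194 and 2271 with hIMP1 wt, and 2615 and 1410 with mock. Both hIMP1 Dmut arrays were above both mock arrays, while hIMP1 wt replicate 2 lay within the mock range. The change was 0.71 ± 0.28 with hIMP1 Dmut (unadjusted p = 0.0276, adjusted p = 1 by limma) and 0.49 ± 0.28 with hIMP1 wt (unadjusted p = 0.11 by limma).

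Probe set 200800_s_at, which also carries the symbol of HSPA1L, read 3157 and 1983 with hIMP1 Dmut, 2757 and 2246 with hIMP1 wt, and 2067 and 1269 with mock. Its hIMP1 wt arrays were above both mock arrays, and hIMP1 Dmut replicate 2 was not. The change was 0.62 ± 0.27 with each construct (unadjusted p = 0.046 for hIMP1 Dmut and 0.0483 for hIMP1 wt, adjusted p = 1 for both, by limma). At 200799_at the arrays read 2026 and 1224 with hIMP1 Dmut, 1976 and 1747 with hIMP1 wt, and 1753 and 936 with mock. Its groups overlapped, with changes of 0.30 ± 0.30 for hIMP1 Dmut and 0.53 ± 0.30 for hIMP1 wt.

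Within each replicate number, both constructs were above mock at all 3 of these probe sets, by 0.17 to 0.61 in number 1 and by 0.38 to 1.07 in number 2. Mock replicate 2 was the lowest of the 6 arrays at each of them. Without it, the changes were 0.27, 0.27 and -0.15 with hIMP1 Dmut, and 0.04, 0.27 and 0.08 with hIMP1 wt, for 202581_at, 200800_s_at and 200799_at in that order. Between the constructs the 3 probe sets gave 0.23 ± 0.28, 0.01 ± 0.27 and -0.24 ± 0.30 for hIMP1 Dmut minus hIMP1 wt, without a shared direction.

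HSPA1L, a relative expressed mainly in testis, has 2 probe sets of its own, and neither passed the filter. At 210189_at the signal was 30.1 and 17.7 with hIMP1 Dmut, 15.1 and 4.79 with hIMP1 wt, and 13.9 and 2.83 with mock. All 6 values were below the median of their array. The second, 233694_at, lay between 1.81 and 21.4 and was highest on a mock array. HSPA2, another member known from testis, read 104 and 40.5 with hIMP1 Dmut, 99.5 and 67.3 with hIMP1 wt, and 86.7 and 60.7 with mock at its 1 probe set, 211538_s_at. The groups overlapped, with changes of -0.13 ± 0.41 for hIMP1 Dmut and 0.16 ± 0.41 for hIMP1 wt, and each group was higher on its number 1 array.

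HSPA8, the constitutive cytosolic chaperone that also uncoats clathrin vesicles, was among the strongest signals of the table, with all 4 of its probe sets at 112 array medians or more on every array. These probe sets also carry the symbols of SNORD14C and SNORD14D, small nucleolar RNAs whose coordinates lie inside HSPA8. At 221891_x_at the arrays read 7121 and 6653 with hIMP1 Dmut, 8771 and 6207 with hIMP1 wt, and 8840 and 4970 with mock. The mock arrays enclosed all 4 construct arrays there. At 210338_s_at the values were 7447 and 4375 with hIMP1 Dmut, 8142 and 6239 with hIMP1 wt, and 6971 and 4431 with mock. The changes over the 4 probe sets lay between 0.00 and 0.05 with hIMP1 Dmut and between 0.15 and 0.36 with hIMP1 wt, with standard errors of 0.25 to 0.29.

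HSPA9 (mortalin), which pulls proteins into mitochondria and folds them there, gave closely similar values in all groups. Its probe set 200691_s_at read 4449 and 3313 with hIMP1 Dmut, 4395 and 4142 with hIMP1 wt, and 3723 and 4324 with mock. The probe set 200692_s_at read 2784 and 2533 with hIMP1 Dmut, 2990 and 2641 with hIMP1 wt, and 2830 and 2548 with mock. Over the 3 kept probe sets, 200690_at included, the changes were -0.06 to 0.03 with hIMP1 Dmut and -0.04 to 0.09 with hIMP1 wt. The 95% intervals were among the narrowest of the family, at -0.39 to 0.35 for hIMP1 Dmut and -0.30 to 0.43 for hIMP1 wt at 200692_s_at. The fourth probe set, 232200_at, was dim, between 13 and 24.7, and did not pass the filter.

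The large relatives that act as exchange factors differed little between groups. HSPH1 (HSP105) is itself induced by heat, and its probe set 206976_s_at read 1644 and 1210 with hIMP1 Dmut, 1297 and 1294 with hIMP1 wt, and 1232 and 960 with mock. Its change was 0.37 ± 0.20 with hIMP1 Dmut (unadjusted p = 0.0983 by limma) and 0.25 ± 0.20 with hIMP1 wt, and it was positive within both replicate numbers for both constructs. The other HSPH1 probe sets, 208744_x_at and 235573_at, gave 0.26 ± 0.30 and -0.05 ± 0.27 with hIMP1 Dmut, and 0.28 ± 0.30 and 0.22 ± 0.27 with hIMP1 wt. At 235573_at both hIMP1 Dmut arrays, 78.3 and 77.4, were below both hIMP1 wt arrays, 96.5 and 95.2, a change of -0.27 ± 0.27.

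HSPA4 (APG-2) had 4 kept probe sets, with changes between -0.13 and 0.13 for hIMP1 Dmut and between -0.14 and 0.25 for hIMP1 wt. Its probe set 208815_x_at read 2067 and 1579 with hIMP1 Dmut, 1726 and 1826 with hIMP1 wt, and 1934 and 1562 with mock, so the mock range nearly coincided with that of hIMP1 Dmut. HSPA4L (APG-1), a close relative of HSPA4, read 572 and 427 with hIMP1 Dmut, 505 and 583 with hIMP1 wt, and 493 and 456 with mock at 205543_at. Both hIMP1 wt arrays were above both mock arrays by a small margin, 0.19 ± 0.21. Its other probe set, 1556194_a_at, gave -0.09 ± 0.22 for hIMP1 wt, so its direction was not shared.

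**Figure D3:**
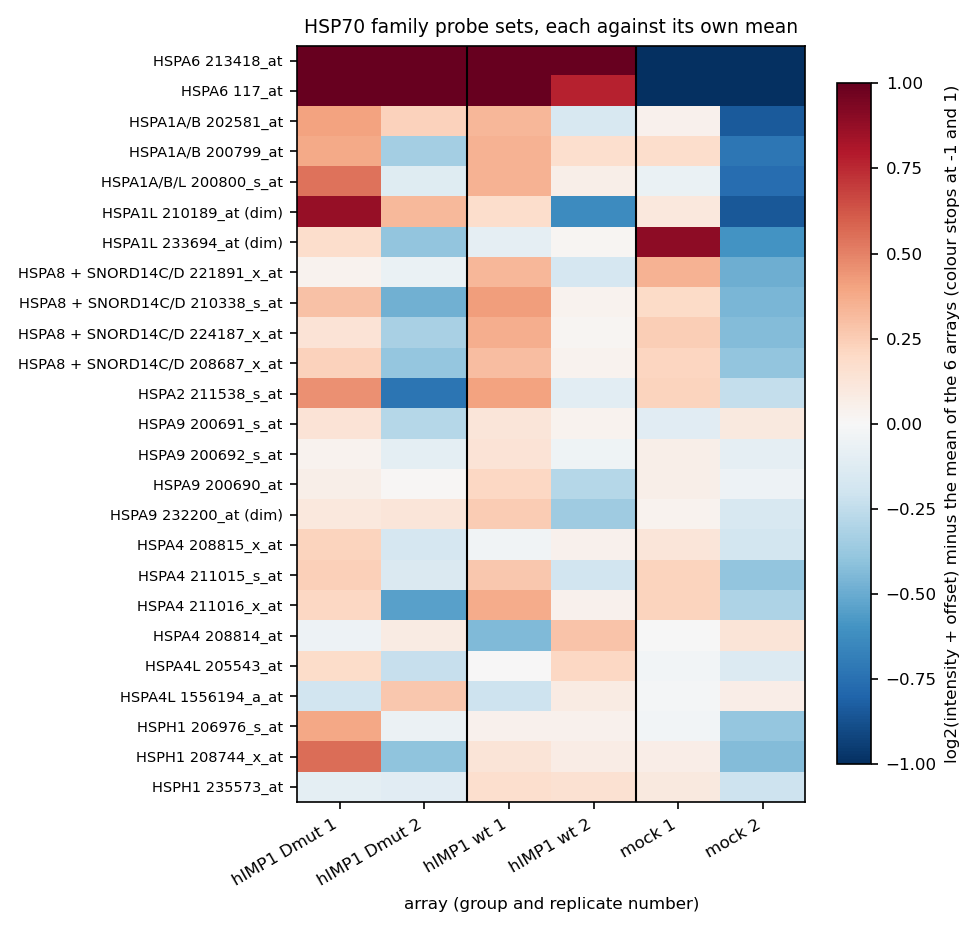
All 25 probe sets (rows) on the 6 arrays (columns), as log2(intensity + offset) minus the row's own mean; red is above the mean and blue below, the colour stops at 1 in either direction, and rows that did not pass the filter are marked dim. HSPA6 separates the 4 construct arrays from the 2 mock arrays, and mock replicate 2 is the lowest array for 11 of the 20 kept rows other than HSPA6.

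Set against the table, the 20 kept probe sets other than HSPA6 showed small changes and 0 calls by limma in each comparison. With hIMP1 Dmut against mock, 13 were higher and 7 lower, with a median change of 0.03, beside 0.010 over all 27307 probe sets. That split turned with 1 array left out (8 higher and 12 lower without mock replicate 2, 7 and 13 without hIMP1 Dmut replicate 1) and with arrays scaled to 1 median (8 and 12). The hIMP1 Dmut arrays were all above the mock arrays at 1 of the 20, 202581_at of HSPA1A and HSPA1B (12.6% of the table), and all below at 0 (11% of the table). An unadjusted limma p under 0.05 was found at 2 of them, both of HSPA1A and HSPA1B, beside 1.42% of the table. These counts include up to 4 probe sets of 1 gene, which share their transcript.

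With hIMP1 wt against mock, 17 of the 20 were higher and 3 lower, with a median change of 0.20, beside -0.011 over the table. Without mock replicate 2, 9 were higher and 11 lower, and the median was -0.01. Within replicate number 1, which does not use that array, 16 were higher, with a median change of 0.09. Within number 2, 18 were higher, with a median of 0.35. The change was positive within both numbers at 14 of the 20 and negative within both at 0. All hIMP1 wt arrays were above all mock arrays at 5 of the 20 (9.72% of the table), and at 0 were all below (11.6% of the table). The 5 were 200800_s_at of HSPA1A and HSPA1B, 205543_at of HSPA4L and the 3 HSPH1 probe sets. An unadjusted limma p under 0.05 was found at 1 of the 20, beside 1.03% of the table. For hIMP1 Dmut minus hIMP1 wt, 8 were higher and 12 lower, and the median change was -0.09, beside 0.020 over the table. Without hIMP1 Dmut replicate 2 the split was 15 higher and 5 lower, and with arrays scaled to 1 median it was 2 and 18. The arrays of the constructs did not overlap at 1 of the 20, 235573_at of HSPH1, which was lower with hIMP1 Dmut (8.89% of the table were lower in this way and 13.1% higher), and 0 of the 20 had an unadjusted limma p under 0.05.

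**Figure D4:**
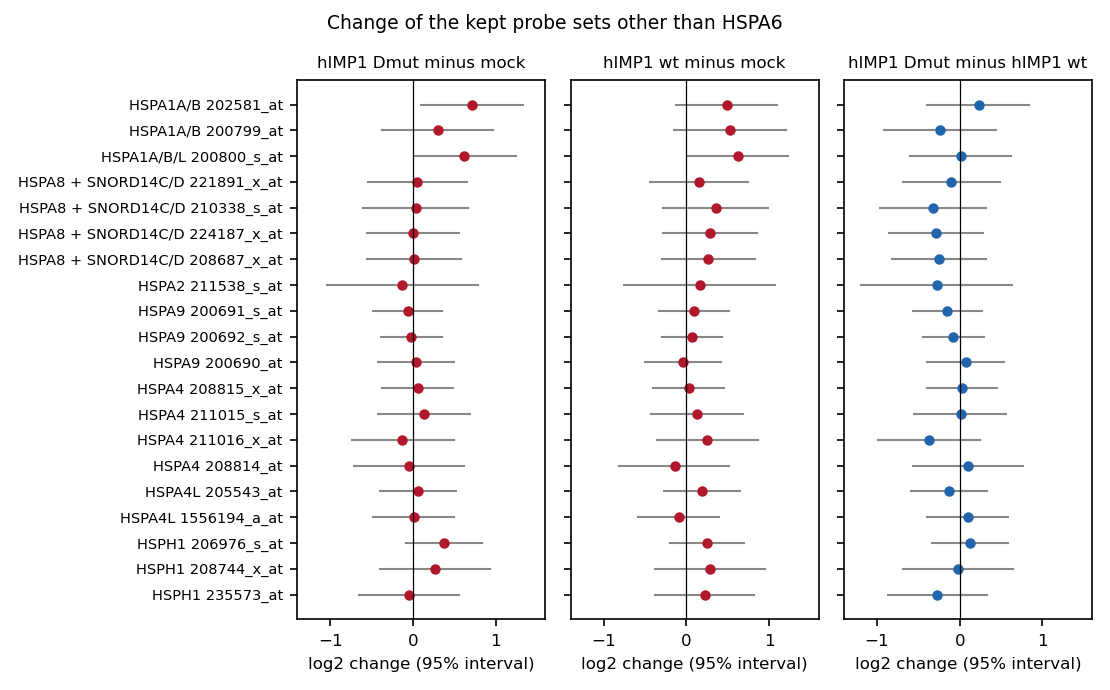
Log2 changes (points) with 95% intervals (lines) of the 20 kept probe sets other than HSPA6, for hIMP1 Dmut minus mock (left), hIMP1 wt minus mock (middle) and hIMP1 Dmut minus hIMP1 wt (right). The largest change against mock is 0.71 with hIMP1 Dmut, at 202581_at, and 0.62 with hIMP1 wt, at 200800_s_at; the intervals of these and of 200800_s_at with hIMP1 Dmut exclude 0, and the others include it.

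The replicate number went with the level of these chaperones in all 3 groups. Of the 20 probe sets, 18 were higher on the number 1 array in hIMP1 Dmut, 16 in hIMP1 wt and 17 in mock. The median gap between number 1 and number 2 was 0.42 in hIMP1 Dmut, 0.23 in hIMP1 wt and 0.48 in mock, beside -0.03, 0.04 and 0.02 over the whole table. Each of these gaps was larger than the median change of the same 20 probe sets between any 2 groups. The lowest value fell on mock replicate 2 for 11 of the 20 and on hIMP1 Dmut replicate 2 for 6, beside 18.8% and 16.2% of the table. The labels do not say what the numbers stand for.

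Genes that work with the family were described from 5 lists of 47 genes, each gene at its brightest kept probe set with 1 symbol. Of these genes, 40 could be measured, and none passed the test in either direction in any of the 3 comparisons. Unadjusted limma p-values under 0.05 were found at 2 of the 40 for hIMP1 Dmut against mock (1.42% of the table), at 1 for hIMP1 wt against mock (1.03%) and at 1 for hIMP1 Dmut minus hIMP1 wt (1.23%). Among those not measured, HSPA7, HSF2 and AHSA1 have no probe set of a single symbol, and the probe sets of HSPA12B, CRYAB and HSF4 did not pass the filter.

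Among 9 cytosolic J-domain partners, DNAJB1, the heat-inducible HSP40 that delivers substrates to HSP70, stood nearest to the HSPA6 pattern. At 200666_s_at it read 1043 and 884 with hIMP1 Dmut, 771 and 714 with hIMP1 wt, and 530 and 489 with mock. Over the table, hIMP1 Dmut lay wholly above mock at 12.6%, hIMP1 wt above mock at 9.72% and hIMP1 Dmut above hIMP1 wt at 13.1%. For DNAJB1 no 2 groups overlapped, in the same order as for HSPA6. Its change was 0.90 ± 0.18 with hIMP1 Dmut (unadjusted p = 0.000526, adjusted p = 1 by limma), 0.54 ± 0.18 with hIMP1 wt (unadjusted p = 0.0141) and 0.37 ± 0.18 between the constructs (unadjusted p = 0.0686). The second DNAJB1 probe set, 200664_s_at, read 857 and 559 with hIMP1 Dmut, 668 and 456 with hIMP1 wt, and 324 and 286 with mock, so that both constructs were again above mock while the constructs overlapped. Of the other J-domain partners with the largest statistics, DNAJA4 gave 0.54 ± 0.50 and DNAJB4 0.19 ± 0.23 with hIMP1 Dmut. With hIMP1 wt, DNAJA4 gave 0.38 ± 0.50 and DNAJA1 0.18 ± 0.26. Between the constructs DNAJB5 differed by 0.23 ± 0.34 and DNAJB4 by 0.22 ± 0.23.

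In the list of 10 exchange factors and other cytosolic cofactors, BAG3 and STIP1 led. BAG3, a stress-inducible exchange factor that guides clients to autophagy, read 1064 and 867 with hIMP1 Dmut, 904 and 619 with hIMP1 wt, and 722 and 500 with mock. Its change was 0.67 ± 0.25 with hIMP1 Dmut (unadjusted p = 0.0217, adjusted p = 1 by limma), where the groups did not overlap, and 0.31 ± 0.25 with hIMP1 wt, where they did. STIP1 (HOP), which hands clients of HSP70 to HSP90, read 1311 and 1217 with hIMP1 Dmut, 1682 and 1971 with hIMP1 wt, and 1609 and 1560 with mock at 213330_s_at. It was lower with hIMP1 Dmut than with hIMP1 wt by a log2 change of -0.52 ± 0.17 (unadjusted p = 0.0108, adjusted p = 1 by limma). Against mock it gave -0.32 ± 0.17 with hIMP1 Dmut and 0.20 ± 0.17 with hIMP1 wt, without overlap in either. Its second probe set, 212009_s_at, read 1473 and 957 with hIMP1 Dmut, 1388 and 1739 with hIMP1 wt, and 1351 and 1513 with mock. Every pair of groups overlapped there. ST13 (HIP), a cofactor that stabilises the ADP state of HSP70, gave -0.20 ± 0.17 for hIMP1 Dmut minus mock and -0.15 ± 0.17 between the constructs, each time with another ST13 probe set of opposite sign. BAG1, an exchange factor, gave -0.15 ± 0.19 for hIMP1 wt minus mock.

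**Figure D5:**
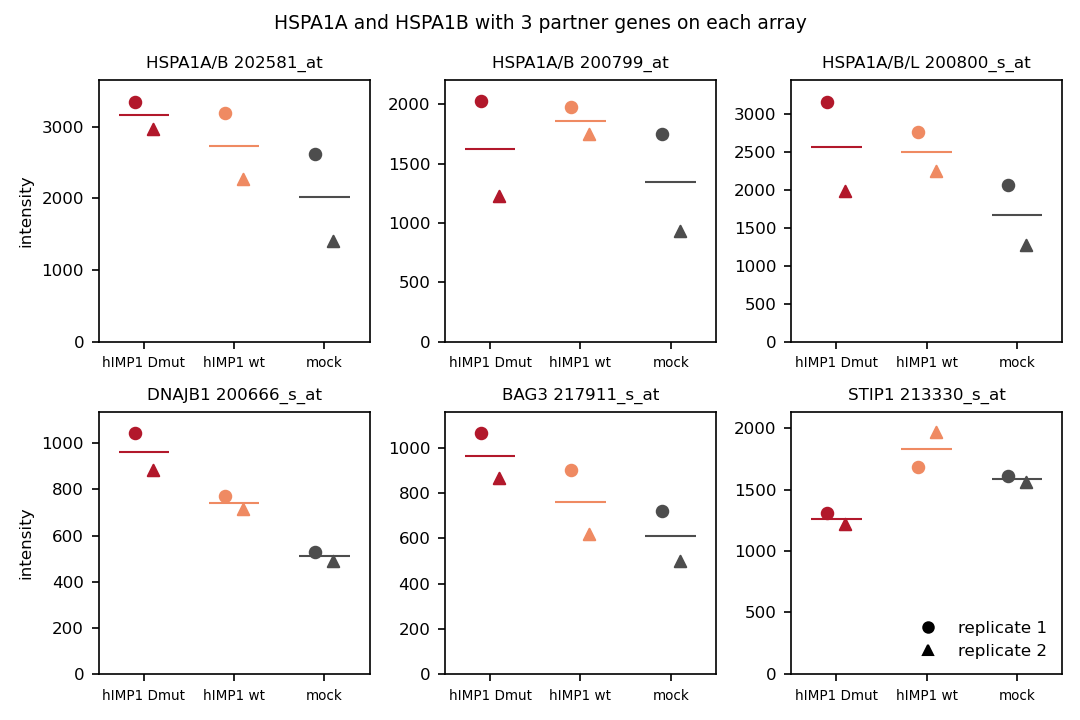
Intensity of the 3 HSPA1A and HSPA1B probe sets (top) and of DNAJB1, BAG3 and STIP1 (bottom) on each array, by group, with axes from 0; circles are replicate 1, triangles replicate 2, and lines the group means. DNAJB1 shows no overlap between the 3 groups, from 884 to 1043 with hIMP1 Dmut, 714 to 771 with hIMP1 wt and 489 to 530 with mock.

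The other measured members of the HSP70 superfamily include those of the endoplasmic reticulum. HSPA5 (BiP), its main HSP70, read 4515 and 2771 with hIMP1 Dmut, 4865 and 3395 with hIMP1 wt, and 3533 and 2575 with mock. Within each replicate number both constructs were above mock, and across numbers the groups overlapped, with changes of 0.23 ± 0.27 for hIMP1 Dmut and 0.43 ± 0.27 for hIMP1 wt. HYOU1, the exchange factor of HSPA5, gave 0.28 ± 0.21 with hIMP1 Dmut and 0.46 ± 0.21 with hIMP1 wt (unadjusted p = 0.0503 by limma). HSPA13, a truncated relative, gave 0.43 ± 0.21 with hIMP1 Dmut and 0.37 ± 0.21 with hIMP1 wt, without overlap with mock in either. At its second probe set, 202558_s_at, both constructs overlapped mock (675 and 556 with hIMP1 Dmut, 659 and 567 with hIMP1 wt, 439 and 570 with mock). HSPA12A, a distant relative, gave -0.22 ± 0.24 with hIMP1 Dmut and -0.27 ± 0.24 with hIMP1 wt, below mock without overlap in both. Between the constructs HYOU1 differed by -0.18 ± 0.21, HSPA5 by -0.20 ± 0.27 and HSPA13 by 0.05 ± 0.21.

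Mitochondrial partners of HSPA9 went in both directions by small amounts, with list medians of -0.06 for hIMP1 Dmut and 0.00 for hIMP1 wt over 7 genes. The exchange factors GRPEL2 and GRPEL1 gave 0.30 ± 0.19 and -0.19 ± 0.19 with hIMP1 Dmut, and 0.13 ± 0.19 and -0.11 ± 0.19 with hIMP1 wt. A second GRPEL1 probe set, 212432_at, read 444 and 374 with hIMP1 Dmut against 578 and 647 with mock, without overlap. HSPE1, the co-chaperonin, gave 0.16 ± 0.23 with hIMP1 wt, and DNLZ, which keeps HSPA9 soluble, gave -0.20 ± 0.24 with hIMP1 Dmut. For hIMP1 Dmut minus hIMP1 wt, GRPEL2 gave 0.17 ± 0.19, DNLZ -0.20 ± 0.24 and HSPE1 -0.15 ± 0.23.

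Other heat shock proteins and factors, 9 measured of 14, had medians of -0.03 for hIMP1 Dmut and 0.04 for hIMP1 wt. With hIMP1 Dmut the leading genes were FKBP4, a cofactor of HSP90, at -0.32 ± 0.21, the polyubiquitin gene UBB at -0.11 ± 0.17 and the collagen chaperone SERPINH1 at 0.14 ± 0.26. With hIMP1 wt they were SERPINH1 at 0.47 ± 0.26, the small heat shock protein HSPB1 at 0.39 ± 0.40 and HSF1, the main heat shock factor, at -0.30 ± 0.34, with opposite sign at another HSF1 probe set. HSPB1 read 263 and 368 with hIMP1 Dmut, 277 and 451 with hIMP1 wt, and 166 and 430 with mock, so its spread between numbers exceeded that between groups. Between the constructs SERPINH1 gave -0.33 ± 0.26, HSP90AB1 -0.16 ± 0.19 and HSF1 0.27 ± 0.34, again with opposite sign at its other probe set.

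The probe sets whose values ran most like HSPA6 over the 6 arrays were sought among 4408 others that span at least 1 on the log2 scale and carry 1 symbol. Of these, 31 had a Pearson correlation over 0.9 with 213418_at, which describes 6 arrays in 3 groups and carries no test. The 5 highest were ELFN1 (0.976), ZSWIM1 (0.973), INHBB (0.961), KLHL25 (0.959) and RORA (0.959). INHBB, the inhibin beta B subunit, read 63.4 and 62 with hIMP1 Dmut, 57.5 and 30 with hIMP1 wt, and 17.2 and 9.29 with mock. ZSWIM1 read 125 and 128 with hIMP1 Dmut, 97.8 and 105 with hIMP1 wt, and 70 and 53.2 with mock. The group means of these genes share the order of HSPA6, which choosing them by correlation favours. All but ZSWIM1 lay below the array median on both mock arrays. From lowest to highest array they span 1.05 to 1.98 on the log2 scale. For HSPA6 the group means alone differ by 5.45 between hIMP1 Dmut and mock.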

How the data were processed

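The files held 1 table of 6 one-colour arrays, with a value per probe set. The values are linear intensities as deposited by the authors, and the 2% trimmed mean was 150.02 on every array. Their software and scaling were not given in the sources used here. Groups came from the labels' descriptions and replicate numbers from the titles. Symbols came from the platform annotation, where 41091 probe sets had 1 symbol, 1801 several and 11721 none. The members, lists and tests were chosen with earlier results of these data known.

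Analysis left out 62 control probe sets and ran on log2(intensity + 9.04), the offset being the pooled lower quartile. The filter kept a probe set with a mean log2 value of 5.19, the median of these means, or more. All 6 arrays entered a single limma 3.58.1 fit (R 4.3.3; lmFit, then eBayes with an intensity trend) with a coefficient per group, 3 residual degrees of freedom and 7.03 from the prior. Two-sided p-values were adjusted by Benjamini-Hochberg over 27307 probe sets, and the threshold was 0.05. The fit was tested on simulated data with independent noise that depended only on the mean level. That simulation held no replicate-number effect and no extra spread of dim mock values, so it does not cover these features of the arrays. The small number of arrays limits the precision. The text names all members, the 3 genes of largest statistic in each partner list and comparison, and the 5 probe sets most like HSPA6. Promoter windows and gene positions are those of RefSeq for GRCh38.p14. The 16 alternatives changed scaling, offset, filter, prior, block or arrays.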

Additional observations from a re-analysis of the deposited data

How the results depend on the processing

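The counts of called probe sets, 2 with hIMP1 Dmut and 2 with hIMP1 wt against mock and all of them HSPA6, depended on how the spread was estimated. The family and the whole table gave the same count unless stated. With hIMP1 wt against mock, 1 was called with the offset at the 10th percentile (adjusted p = 0.0829 at 213418_at), 1 among the 13654 probe sets above the 75th percentile, where 117_at is no longer tested, 0 with only the 4 arrays compared and 0 without an intensity trend. With hIMP1 Dmut against mock, 1 was called above the 75th percentile, again because 117_at is not tested there, and 0 without a trend. Leaving out each array in turn gave 0 to 2 calls in the family with either construct, 0 to 2 in the whole table with hIMP1 Dmut, and 0 to 3 in the whole table with hIMP1 wt. The 0 calls came without hIMP1 Dmut replicate 1 or 2. In these fits the group with 1 array left is assumed to vary like the others. The causes were not tested. No call was made among the other 20 members under any of the 16 alternatives. Their sign changed in 5 of 197 values for hIMP1 Dmut minus mock, 0 of 197 for hIMP1 wt minus mock and 4 of 197 for hIMP1 Dmut minus hIMP1 wt under the other 10 settings, and in 27, 18 and 21 of 120 values when 1 array was left out.

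With the replicate number as a block, the counts were again 2 with hIMP1 Dmut, 2 with hIMP1 wt and 0 between the constructs, and the block changed no other call. The HSPA6 adjusted p became 7.6e-07 with hIMP1 Dmut and 4.67e-06 with hIMP1 wt at both probe sets. Deviations of same-numbered arrays from their group means correlated at 0.22 between hIMP1 Dmut and hIMP1 wt, 0.2 between hIMP1 Dmut and mock and 0.46 between hIMP1 wt and mock, over 2 numbers whose meaning the labels do not give. No sample group was large enough for an outlier test, and no detection calls were used to say which dim values are above background.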
